A study of Strophostyles helvola with 12 samples.

Results

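Steady genes are genes whose share of the root RNA stayed within a narrow range in every library, whatever the genotype and whether or not salt was given. They were chosen by their measured CPM, the count of a gene per 1000000 counts of its library. A gene was kept where its smallest CPM of the 12 libraries was at least 50, its largest CPM was at most 1.3 times its smallest, and its mean CPM lay below a ceiling that left out a single gene. By this rule 640 of the 27191 genes in the table were steady, or 2.35%. Of the 3665 genes that met both limits on level, they made up 17.5%, and the other 3025 exceeded the limit on the ratio. All 12 libraries entered this choice, so the levels given here describe these genes and test nothing.

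The plants were Strophostyles helvola, the sand bean, a wild relative of common bean. Beach treatment was the genotype from coastal North Carolina watered to a final concentration of 400 mM NaCl, and Beach control the same genotype given water. Inland treatment was the genotype from central Missouri brought to 200 mM NaCl, and Inland control that genotype given water. Each group had 3 libraries of whole roots, from plants that were 10 d old when treatment began, and each library pooled 3 plants, taken 3 h, 24 h and 7 d after the final concentration was reached. A value therefore averages over these times. The dose differed along with the genotype, so their effects cannot be told apart among treated plants or between the salt responses, while the 2 control groups differ in genotype without salt. In such bulk samples, fewer cells of a type and less RNA per cell cannot be told apart.

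Genes of this kind are of use as a yardstick. Quantitative PCR measures a transcript against reference genes that are taken not to move. Common scaling methods for RNA-seq likewise assume that most genes do not change in expression. In roots, high salt brings osmotic stress and sodium toxicity, and it is known to alter transcripts of hormone signalling, ion transport and cell wall growth on a broad scale. Housekeeping genes, which serve protein synthesis, the cytoskeleton or energy metabolism in every cell, are the usual candidates for references, but not all of them hold still under stress. The deposited table names genes by common bean identifiers only and pairs them with no gene name or function. No role can therefore be given to the genes below, and the root label was not checked against marker genes.

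Libraries held 29205979 to 41330498 counts, and the count of a steady gene in a library ran from 1495 to 31406, with a median of 3212.5. Beach control replicate 1 stood apart from the other libraries over these genes, as given below, and the counts that it moved most are also given without it.

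The steadiest gene was Phvul.002G078800. It held 116.9, 120.6 and 117.7 CPM in Beach treatment, against 120.9, 121.3 and 120.7 CPM in Beach control. In the Inland genotype it held 123.9, 121.3 and 123.9 CPM with treatment, against 123.5, 122.2 and 122.0 CPM in control. Its largest value was 1.06 times its smallest. Treatment and control overlapped in the Inland genotype, while all 3 Beach treatment values lay below the 3 Beach control values. Its coefficient of variation (CV, the SD over the 12 libraries as a percentage of the mean) was 1.81%, against 1.56% from counting reads alone.

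Phvul.002G301900 had the next smallest ratio, 1.08, with 269.5, 273 and 264 CPM in Beach treatment, against 277, 279 and 268 CPM in Beach control. Its Inland treatment libraries held 280.0, 281 and 266 CPM, against 284, 280.1 and 285 CPM in Inland control. The groups overlapped in both genotypes. At 275.7 CPM on average, its CV of 2.59% was 2.50 times the counting error of 1.04%.

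Phvul.001G086700, with a ratio of 1.09, held 112, 113 and 109.0 CPM in Beach treatment, against 105, 109 and 109.8 CPM in Beach control. In Inland treatment it held 109.5, 109.7 and 111 CPM, against 115, 111 and 114 CPM in Inland control. Its lowest value came from Beach control replicate 1. Phvul.008G043300 also had a ratio of 1.09 and averaged 142 ± 3.48 CPM in Beach treatment and 148 ± 3.31 CPM in Beach control, and 139 ± 2.70 CPM in Inland treatment and 143 ± 6.62 CPM in Inland control (SD, n = 3 each). Phvul.010G164000, the fifth of the named ones, averaged 309 ± 4.36 CPM in Beach treatment and 314 ± 7.98 CPM in Beach control, and 316 ± 1.73 CPM in Inland treatment and 312 ± 14.3 CPM in Inland control (SD, n = 3 each). Its 4 group means differed by a factor of 1.02 at most, less than the range within Inland control alone, where the replicates held 327, 309 and 299 CPM.

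Only 8 steady genes had a ratio of at most 1.1. The other 3 were Phvul.004G092400 with 95.6 to 105 CPM, Phvul.002G155600 with 107 to 118 CPM, and Phvul.002G046700 with 57.9 to 63.7 CPM over the 12 libraries. A ratio of at most 1.2 was met by 209 genes. The median ratio of the 640 genes was 1.23, against 1.54 for all 3665 genes within the limits on level. Among those 3665, 780 genes (21.3%) had a ratio of at least 2 and the largest ratio was 27.2.

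**Figure D1:**
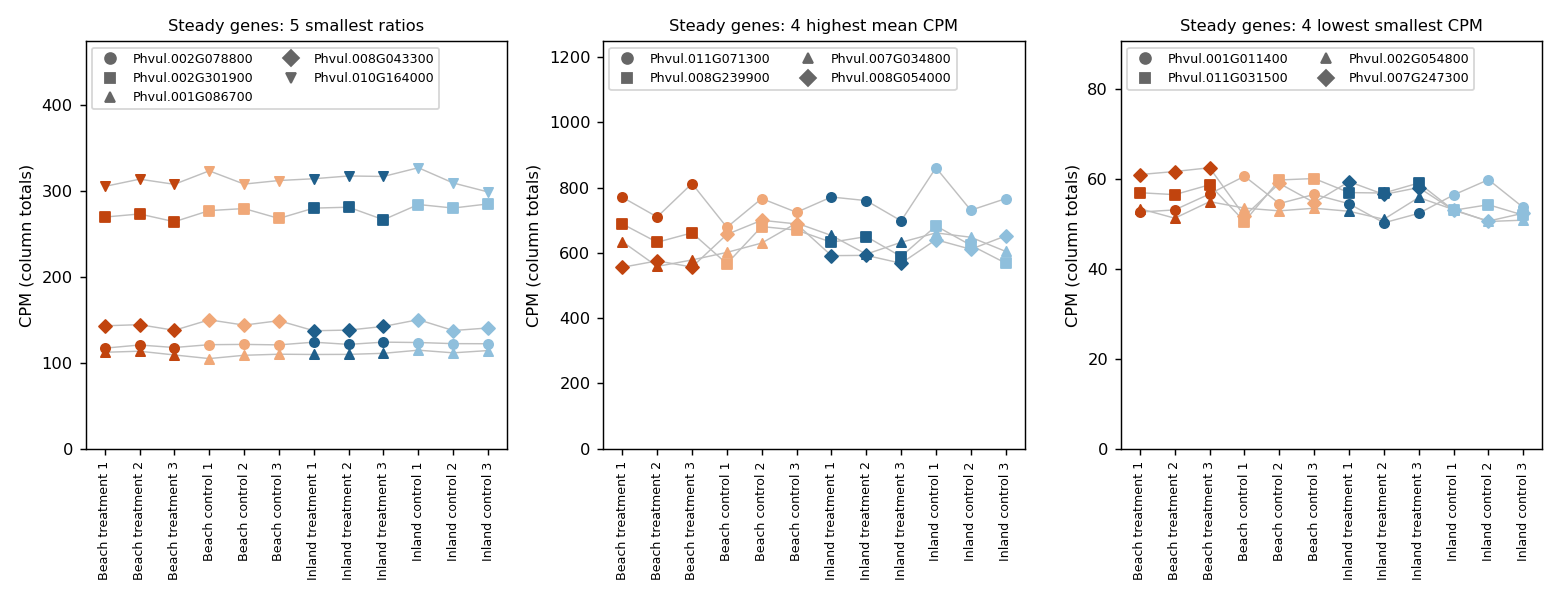
CPM on column totals (vertical axis, starting at 0) of 13 steady genes in each of the 12 libraries (horizontal axis), with a marker shape per gene and a colour per group. The 5 genes with the smallest ratios, the 4 with the highest mean CPM and the 4 with the lowest smallest CPM have a panel each, and the first 5 lie nearly level across genotype and salt.

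The limit of 1.3 cut through a continuous distribution. Just inside it lay Phvul.007G055400 at 1.2998, Phvul.003G134800 at 1.2995 and Phvul.006G053300 at 1.2994. Just outside it lay Phvul.002G121800 at 1.30001, Phvul.003G230400 at 1.3004 and Phvul.011G016600 at 1.3005. The gene that the ceiling on mean CPM left out was Phvul.003G047500, with 1143 CPM on average and a ratio of 1.253. The gene next below that limit was Phvul.011G071300 with 754 CPM. At the lower edge, Phvul.001G011400 had a smallest value of 50.2 CPM and was kept, and Phvul.010G007000 with 49.8 CPM was not.

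**Figure D2:**
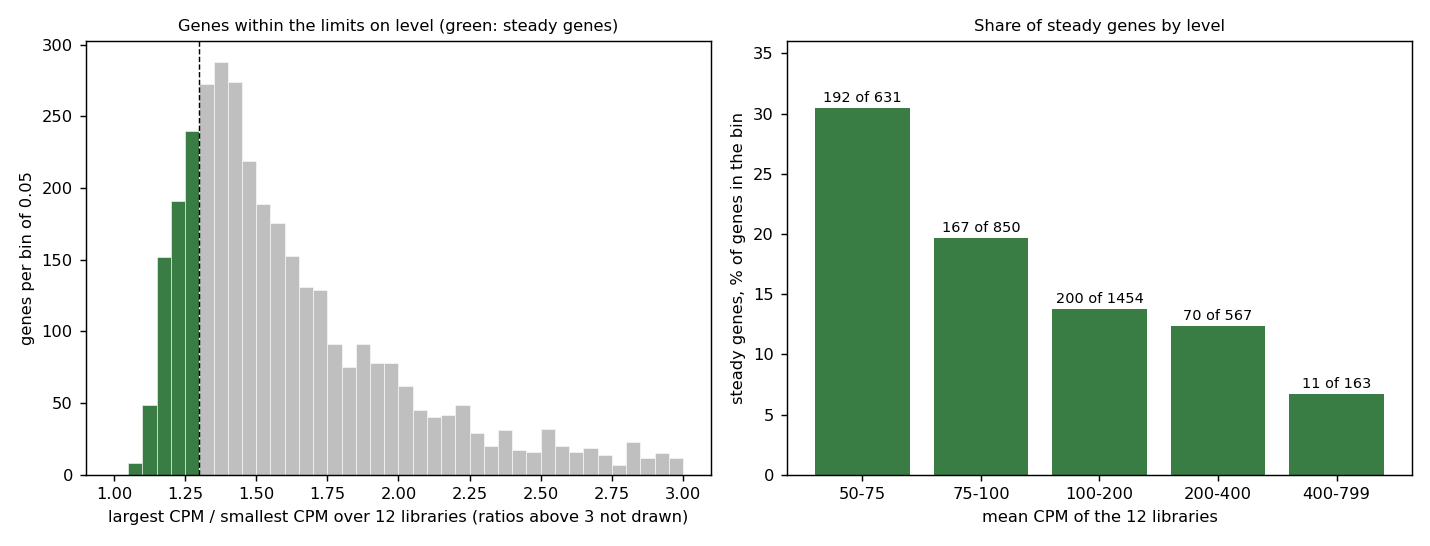
Left, number of genes (vertical axis) by the largest over the smallest CPM of the 12 libraries (horizontal axis, bins of 0.05) among the 3665 genes within the limits on level, with the 640 steady genes in green, the limit of 1.3 as a dashed line and ratios above 3 not drawn. Right, steady genes as a percentage of the genes in 5 bins of mean CPM, which ran from 30.4% in the lowest bin to 6.75% in the highest.

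Most steady genes lay in the lower part of the admitted range of CPM. Their mean CPM ran from 52.7 to 754 with a median of 94.4, against a median of 120.3 for the other 3025 genes, and 27 of them exceeded 300 CPM. Of genes with 50 to 75 CPM on average 30.4% were steady, but there the minimum of 50 by itself admits only genes with little downward spread. From 100 CPM upwards the share was 13.8% up to 200 CPM, 12.3% up to 400 CPM and 6.75% above it, where 11 of 163 genes were steady. CPM is not corrected for gene length, which the table does not give, so a higher CPM of one gene than of another is not a higher number of transcripts.

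The 4 steady genes with the highest mean CPM varied more than counting alone would give. Phvul.011G071300 held 771, 710.2 and 813 CPM in Beach treatment, against 678, 767 and 724 CPM in Beach control. In Inland treatment it held 771, 760.3 and 698 CPM, against 861, 731 and 766 CPM in Inland control. Treatment and control overlapped in both genotypes, and its CV of 6.69% was 10.7 times the counting error. With TMM scaling, which corrects library totals for differences in composition, its ratio was 1.33 and it no longer met the limit.

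Phvul.008G239900 averaged 661 ± 28.1 CPM in Beach treatment and 639 ± 63.0 CPM in Beach control, and 624 ± 31.5 CPM in Inland treatment and 625 ± 57.1 CPM in Inland control (SD, n = 3 each). Its lowest value, 567 CPM, again came from Beach control replicate 1. Phvul.007G034800 averaged 590.5 ± 39.5 CPM in Beach treatment and 641 ± 46.0 CPM in Beach control, and 627 ± 29.0 CPM in Inland treatment and 638 ± 29.7 CPM in Inland control (SD, n = 3 each). For Phvul.008G239900 the SD within groups was 47.5 CPM and the SD of the 4 group means 17.3 CPM, and for Phvul.007G034800 they were 36.7 and 23.2 CPM. Phvul.008G054000 was of the other kind, with an SD of 17.8 CPM within groups and 53.4 CPM between their means, and is described with the salt comparisons.

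The 4 steady genes with the lowest smallest CPM lay close to the minimum in several libraries. Phvul.002G054800 held 53.3, 51.2 and 54.9 CPM in Beach treatment, against 53.4, 52.8 and 53.4 CPM in Beach control. It held 52.7, 51.0 and 55.8 CPM in Inland treatment, against 53.1, 50.5 and 50.7 CPM in Inland control. All 4 groups overlapped, and its CV of 3.13% was 1.32 times the counting error. Phvul.001G011400 averaged 54.1 ± 2.20 CPM in Beach treatment and 57.1 ± 3.09 CPM in Beach control, and 52.3 ± 2.12 CPM in Inland treatment and 56.6 ± 3.10 CPM in Inland control (SD, n = 3 each). Phvul.011G031500 held 50.5 CPM in Beach control replicate 1 and 59.7 and 60.01 CPM in the other Beach control libraries, so both its smallest and its largest value came from this group. Phvul.007G247300 held 60.9, 61.6 and 62.4 CPM in Beach treatment, against 51.7, 58.9 and 54.7 CPM in Beach control, and 59.3, 56.5 and 58.0 CPM in Inland treatment, against 53.0, 50.5 and 52.3 CPM in Inland control. Its treated libraries lay above the controls without overlap in both genotypes, within a ratio of 1.23, but the gene was called in neither salt comparison, and its fitted Inland log2 fold change with TMM was 0.08.

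Over all 640 genes the CV across the 12 libraries ran from 1.81% to 10.0% with a median of 6.39%. Counting error alone gave a median CV of 1.77%, and the observed CV was 3.59 times the counting error in the median gene. In 3 genes it was under 1.5 times. Counting error was thus a small part of the spread of most steady genes. The reads carried no molecular identifiers, so the counting error takes each read as independent.

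The 4 group means of a steady gene differed by a factor of 1.12 in the median and 1.26 at most. In 38 genes they lay within 5% of each other, in 232 they differed by a factor of at most 1.1, and in 33 by more than 1.2. Between replicates, the largest CPM was in the median gene 1.06 times the smallest in Beach treatment and 1.11 times in Beach control, and 1.06 times in Inland treatment and 1.07 times in Inland control. The other 3025 genes had 1.11 in Beach treatment and 1.23 in Beach control, and 1.098 in Inland treatment and 1.13 in Inland control.

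With fewer libraries to meet it, the limit of 1.3 was met by more genes, as the form of the rule ensures. Within a group of 3 libraries it was met by 3452 of the 3665 genes in Beach treatment and 2587 in Beach control, and by 3394 in Inland treatment and 3192 in Inland control. Of all 3665, 2190 met it within each group taken alone, and 1550 of these missed it over all 12 libraries. Within a genotype, over treated and control libraries together, 1211 genes met it in Beach and 2004 in Inland, and 945 met it in each genotype taken alone. Of these 945, 305 exceeded the limit over all 12 libraries, which does not by itself give the size of a difference between genotypes. Across genotypes, 2302 genes met the limit over the 6 treated libraries and 1531 over the 6 control libraries. A ratio over 6 libraries tends to be larger than one over 3, so only counts over the same number of libraries can be compared. Without Beach control replicate 1, 3602 of the 3665 genes met the limit over the 2 remaining Beach control libraries. It was then met by 1938 over the 5 Beach libraries and 2421 over the 5 control libraries. Without that library, 2943 met the limit within each group alone and 1455 within each genotype alone, 375 of which missed it over all 11 libraries. Part of each rise comes from the smaller number of libraries, and no other library was left out of these counts.

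Beach control replicate 1 bears on these counts. Of the 640 genes, 111 had their highest and 134 their lowest CPM in that library, which makes it an extreme for 38.3% of them, against 7.97% to 22.2% for each of the other libraries. Its median deviation from the mean of a gene was -0.01 on the log2 scale, on column totals and -0.07 with TMM, the farthest from 0 of the 12 libraries on that scale. Its deviations were also the widest on column totals, with an interquartile range of 0.207 on the log2 scale against 0.0906 to 0.135 elsewhere. Without this library 1115 genes met the rule over the remaining 11, that is 475 more, and all 640 were among them. Leaving out any other library gave 651 to 725 genes. By the paper's quality values, this library had the lowest GC percentage of the 12 and a smaller uniquely mapped share than the other Beach controls. What set this library apart was not tested.

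**Figure D3:**
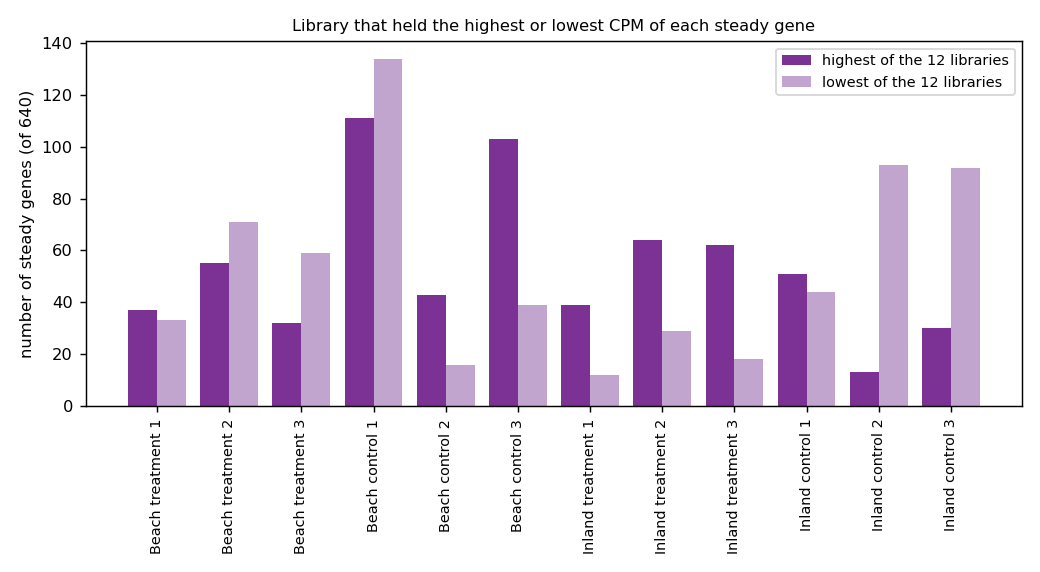
Number of the 640 steady genes (vertical axis) with their highest (dark bars) or lowest (light bars) CPM in each library (horizontal axis). Beach control replicate 1 held 111 of the highest and 134 of the lowest values, more of each than any other library.

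By the rule, the 640 genes together took much the same part of each library. They held 7.77% to 7.83% of the counts in Beach treatment and 7.74% to 7.94% in Beach control, and 7.91% to 7.94% in Inland treatment and 7.62% to 7.83% in Inland control. The largest share was 1.04 times the smallest, and for the other 3025 genes it was 1.02 times, so an even total did not set the steady genes apart. The highest of the 4 group means was that of Beach treatment for 155 genes and Beach control for 185, and that of Inland treatment for 204 and Inland control for 96. The lowest was that of Beach treatment for 210 genes and Beach control for 97, and that of Inland treatment for 72 and Inland control for 261. As percentages of the steady genes, Inland treatment held the highest mean for 31.9% and Inland control the lowest for 40.8%. Among the other 3025 genes these were 20.4% and 32.9%, and the median deviation on column totals had the same sign, above 0 in all 3 Inland treatment libraries and below 0 in all 3 Inland control libraries.

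This order turned round with the scaling. TMM factors ran from 0.956 in Inland control replicate 2 to 1.04 in Beach control replicate 1. On column totals the median deviation of the steady genes from their own mean was 0.02 on the log2 scale in all 3 Inland treatment libraries, against -0.01, -0.04 and -0.04 in Inland control. With TMM it was -0.02, -0.03 and -0.02 in Inland treatment, against -0.00, 0.02 and 0.02 in Inland control. In the Beach genotype it was 0.00, -0.01 and -0.01 in treatment on column totals, against -0.01, 0.01 and 0.02 in control. With TMM it was 0.02, 0.05 and 0.00 in Beach treatment, against -0.07, -0.00 and 0.01 in Beach control. When the rule itself was applied to TMM-scaled CPM, 662 genes met it and 507 of them were among the 640, or 79.2% of the 640 and 76.6% of the 662.

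**Figure D4:**
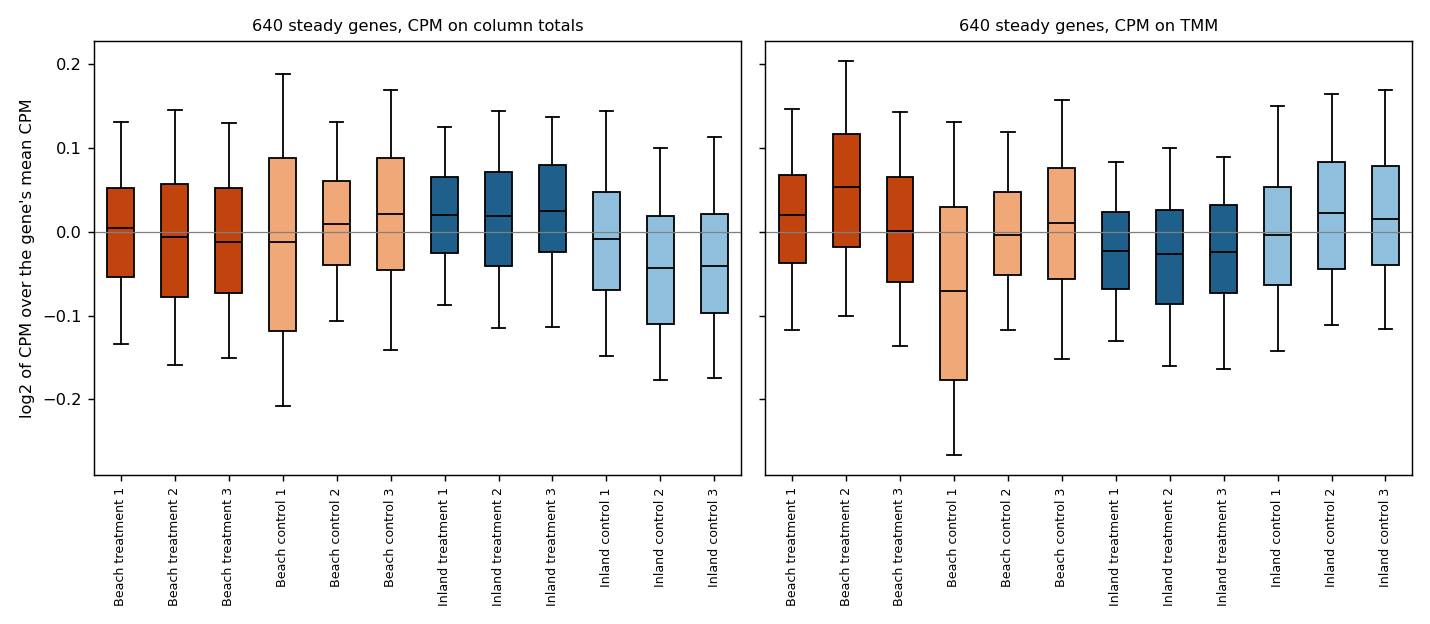
Deviation of each of the 640 steady genes from its own mean CPM (vertical axis, log2) in the 12 libraries (horizontal axis), for CPM on column totals (left) and with TMM factors (right). Boxes span the quartiles with the median as a line and whiskers the 5th to 95th percentiles. Inland treatment lies above Inland control on the left and below it on the right, and Beach control replicate 1 has the widest box in both.

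Small differences between groups could still exceed the spread between replicates. With edgeR's quasi-likelihood test on all genes, TMM scaling and no minimum on the fold change, a gene was called at an fdr of at most 0.05. For Beach treatment against Beach control, 22 of the 640 genes (3.44%) were called, 11 higher and 11 lower with salt. Over all 16154 genes tested 43.6% were called, 20.5% higher and 23.1% lower. The steady genes had fitted log2 fold changes between -0.26 and 0.27 with a median of 0.01, and a median size of 0.08 against 0.31 over all genes. The rule used the same libraries, and these counts are a description. By the paper's values, RNA integrity was lower in every Beach treatment library than in every Beach control library. It therefore cannot be told apart from salt here. With each Beach library left out in turn, 71 steady genes were called without Beach control replicate 1. Calls numbered 1 each without Beach control replicate 2 or 3 or Beach treatment replicate 2. They numbered 0 without Beach treatment replicate 1 or 3, where 21 and 17 had an unadjusted p under 0.05. Over all 16154 genes the calls moved too, from 7047 to 8586 without Beach control replicate 1. Without any other Beach library they fell to between 4995 and 6002. The split also moved with the scaling, to 7 higher and 14 lower with library totals and 18 and 6 with RLE factors (the scaling of DESeq2). The median log2 fold change over all genes was -0.02 with TMM, -0.04 with library totals and -0.01 with RLE factors. The split moved with the filter too, which changes the genes tested. It was 23 and 2 with a filter at 1 CPM and 19 and 0 with no filter on low counts. Over all genes, 7023 of 16154 were called with library totals and 7023 with RLE factors. With a filter at 1 CPM 8268 of 19622 were called, and with no filter 8575 of 24216.

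For Inland treatment against Inland control, 64 of the 640 genes (10.0%) were called, 10 higher and 54 lower with salt. Over all 16130 genes tested 36.4% were called, 18.8% higher and 17.6% lower. The fitted log2 fold changes of the steady genes ran from -0.39 to 0.24, with a median of -0.03 and a median size of 0.08 against 0.20 over all genes. With library totals in place of TMM, 94 genes were called, 82 higher and 12 lower, so which genes passed and the prevailing direction both changed. Over all 16130 genes 6297 were called with library totals, against 5868 with TMM, and their split with library totals is not given here. The median log2 fold change over all genes also moved, from -0.002 with TMM to 0.08 with library totals. The steady genes were chosen on column totals, and a change of scaling shifts all genes of a library alike. What turned the prevailing direction was not tested. Of the 64 genes, 22 were also called with library totals, and 0 of these 22 changed sign. The count fell to between 15 and 38 when any of the 6 Inland libraries was left out, lowest without Inland treatment replicate 3. Such fits have fewer libraries, and over all genes the calls fell too, from 5868 to between 4117 and 5262.

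Of the 640 genes, 559 were called in neither salt comparison, 17 in the Beach genotype only, 59 in the Inland genotype only and 5 in both, all 5 lower with salt. Over the 15516 genes tested in both comparisons, 43.0% were called in neither, 20.7% in Beach only, 14.01% in Inland only and 22.3% in both. Without Beach control replicate 1 the steady genes gave 518 called in neither, 58 in Beach only, 51 in Inland only and 13 in both. With any other Beach library left out, 0 were called in both. Beach calls over all genes then fell too, so these counts do not show which libraries the 5 genes rest on. Shares over all genes were not computed for joint counts with a library left out. The difference between the genotypes in these counts was not tested, and the Beach comparison had the larger error, with a median standard error of 0.08 on the log2 scale against 0.05 in Inland. Phvul.008G054000 was among the 5. It held 556, 575 and 557 CPM in Beach treatment, against 657, 700.0 and 689 CPM in Beach control. In Inland treatment it held 592, 592 and 568 CPM, against 640.4, 611 and 652 CPM in Inland control. Treated libraries lay below controls without overlap in both genotypes. The log2 fold change was -0.26 (standard error 0.09) in Beach, the largest fitted fall among called steady genes there, and -0.20 (standard error 0.06) in Inland. The Beach call was close to the limit and did not hold under 10 of 13 alternatives, with log2 fold changes between -0.28 and -0.22.

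Phvul.003G242400 had the largest fitted rise among steady genes called in the Beach genotype. It held 119.8, 110.0 and 117 CPM in Beach treatment, against 99.8, 96.1 and 94.8 CPM in Beach control, without overlap, and its log2 fold change was 0.27 (standard error 0.07). Its Inland treatment libraries held 122, 114 and 112 CPM, against 109.7, 103 and 102 CPM in Inland control. The Beach call did not hold in 4 of 13 alternatives, each of which left out a library other than Beach control replicate 1 and Beach treatment replicate 2.

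Phvul.001G053000 had the largest fitted rise among those called in the Inland genotype. It held 109, 114 and 114 CPM in Inland treatment, against 89.1, 90.2 and 90.8 CPM in Inland control, and its log2 fold change was 0.24 (standard error 0.05). In Beach treatment it held 110.4, 115 and 112 CPM, against 97.4, 102 and 101 CPM in Beach control. Treated libraries lay above controls in both genotypes. Its ratio over the 12 libraries was 1.29 on column totals and 1.34 with TMM.

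Phvul.004G032900 had the largest fitted fall in the Inland genotype, and it moved the other way in Beach. It held 79.8, 79.8 and 79.4 CPM in Inland treatment, against 97.1, 97.7 and 101 CPM in Inland control, a log2 fold change of -0.39 (standard error 0.05). In Beach treatment it held 93.4, 98.1 and 101 CPM, against 89.7, 86.6 and 84.9 CPM in Beach control, a log2 fold change of 0.19 (standard error 0.07) that was not called. The groups overlapped in neither genotype. All 13 alternatives kept the Inland call of this gene and of Phvul.001G053000. The ratio of Phvul.004G032900 was 1.27 on column totals and 1.37 with TMM. With DESeq2 size factors it was 1.37 and with upper quartile scaling 1.34, so the gene was steady on column totals only.

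**Figure D5:**
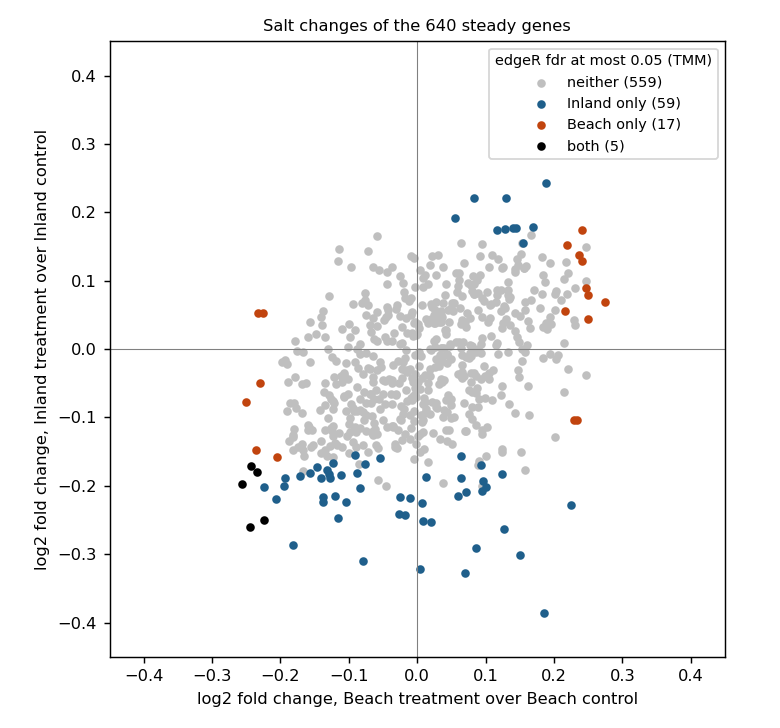
Log2 fold change with salt of the 640 steady genes in the Beach genotype (horizontal axis) and the Inland genotype (vertical axis), fitted with edgeR on TMM-scaled counts. Colours mark genes called at an fdr of at most 0.05 in neither genotype (559), in Inland only (59), in Beach only (17) or in both (5), and Phvul.004G032900 is the lowest point, at 0.19 and -0.39.

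In 23 of the 640 genes (3.59%), treated and control libraries did not overlap in either genotype and lay in opposite order in the 2 genotypes on column totals. Over the 3665 genes within the limits on level this share was 2.84%. Of the 23 genes, 4 were higher with salt in Beach and lower in Inland, and 19 the reverse. With TMM scaling 23 genes again met this description, 22 of them higher in Beach and lower in Inland and 1 the reverse, and 5 were the same genes under both scalings. Which of the 2 orders prevailed among the steady genes thus also changed with the scaling. With TMM no share over the 3665 genes was computed, and the 2 orders were not counted over them with either scaling. Without Beach control replicate 1 and on column totals, 37 genes (5.78%) met it, against 3.96% of the 3665.

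Between the genotypes, Beach treatment against Inland treatment gave 42 called steady genes (6.56%), 28 higher and 14 lower in Beach. Over all 16909 genes tested 37.5% were called, 17.6% higher and 20% lower. Without Beach control replicate 1, which entered the fit of 4 groups through the shared spread, 101 steady genes were called. Without any one of the 6 treated libraries 16 to 24 were called. Over all genes the calls moved too, from 6347 to 7803 without Beach control replicate 1. They fell to between 4926 and 5391 without a treated library. With library totals the split of the steady genes was 13 higher and 39 lower, and with no filter on low counts 40 higher and 5 lower. Over all genes, 6284 of 16909 were called with library totals and 7878 of 24753 with no filter. The median log2 difference over all genes was -0.004 with TMM and -0.04 with library totals.

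Beach control against Inland control gave 37 called steady genes (5.78%), 7 higher and 30 lower in Beach. Over all genes 25.9% were called, 12% higher and 13.8% lower. With library totals 41 were higher and 12 lower, the reverse of the order with TMM, and with no filter on low counts 2 were higher and 23 lower. Over all genes, 4821 of 16909 were called with library totals and 5068 of 24753 with no filter. The median log2 difference over all genes was 5.2e-05 with TMM and 0.07 with library totals. Without Inland control replicate 2, and likewise without replicate 3, 15 steady genes were called. Over all genes the calls fell too, from 4374 to 2976 without replicate 2 and 2797 without replicate 3. Fitted log2 differences ran from -0.39 to 0.20 between controls and from -0.25 to 0.33 between treated plants. These 4 comparisons share libraries pairwise and are not independent of each other. Taken over all of them, 508 steady genes were called in none, 101 in 1, 29 in 2, 2 in 3 and 0 in all 4. Over the 15516 genes tested in every comparison, 30.01% were called in none, 22.4% in 1, 31.0% in 2, 12.2% in 3 and 4.37% in all 4. Without Beach control replicate 1 the steady genes gave 423 called in none, 151 in 1, 61 in 2, 4 in 3 and 1 in all 4. Shares over all genes were not computed without that library.

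Steady genes were spread over the whole set of identifiers. By the naming of these identifiers, the number before the letter G is the chromosome of common bean. The share of steady genes among those within the limits on level ran from 15.3% for number 5 to 21.0% for number 10. The most steady genes were on number 2, with 86 of 536, and number 9, with 85 of 420. None of the 3 genes with the letter L in place of a number was steady.

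Neighbours in the order of identifiers were both steady in 20 of the 616 adjacent pairs within the limits on level, or 3.25%. Of the 211 neighbours of a steady gene that lay within those limits, 19.0% were steady, against 17.5% of all genes within them, so steady genes lay side by side about as often as their number gives. There were 16 runs of 2 and 2 runs of 3. In the first run of 3, Phvul.001G052800 held 79.9 to 92.9 CPM, Phvul.001G052900 59.5 to 68.3 CPM and Phvul.001G053000 89.1 to 115 CPM. The first averaged 83.9 ± 3.89 CPM in Beach treatment and 88.7 ± 1.60 CPM in Beach control, and 90.3 ± 2.57 CPM in Inland treatment and 82.4 ± 2.44 CPM in Inland control (SD, n = 3 each). It was called in neither salt comparison, and its neighbour Phvul.001G053000 was called in Inland only. In the second run, Phvul.009G037600 held 74.8 to 83.8 CPM, Phvul.009G037700 52.4 to 62.3 CPM and Phvul.009G037800 50.9 to 65.7 CPM. The last averaged 54.0 ± 3.15 CPM in Beach treatment and 62.9 ± 2.56 CPM in Beach control, and 61.5 ± 2.81 CPM in Inland treatment and 59.1 ± 3.83 CPM in Inland control (SD, n = 3 each).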

How the data were processed

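The authors trimmed the reads (Trimmomatic 0.36 per the submitters' processing notes), aligned them to the common bean genome Pvulgaris_218_v1.0 with STAR, and used featureCounts to sum reads with a single alignment on the exons per gene. The deposited value is a count per gene and library, with no normalization. Versions of STAR and featureCounts and a strand option were not given in the sources used here. Reads were aligned to another species, so a gene that diverged from common bean can lose reads.

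CPM was computed on column totals, and genes were selected as the report states. Counts were tested with edgeR 4.0.16 (quasi-likelihood test, Benjamini-Hochberg fdr, TMM) in R 4.3.3 on genes above 5 CPM in at least 3 libraries of the fit. Each salt comparison used the 6 libraries of its genotype, and comparisons of genotypes used all 12. Standard errors were derived from the F statistic. The fits for the salt comparisons and for the controls were first run on simulated data with known changes. Those changes were larger than any fitted for a steady gene, so these runs do not bear on calls of small changes. DESeq2 1.42.0 served as an alternative, besides edgeR's exact test, other scalings, filters, a replicate block and each library left out. Figures and tables were made with Python 3.11.15, pandas 2.3.3, numpy 2.4.6 and matplotlib 3.10.9. Chi-square over the genes of 2 replicates, per degree of freedom, was 11.6 to 59.4, far above sampling noise, and each library was counted once.

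The genes and the tests were chosen with earlier results of these data known. Genes were named by a fixed rule: the 5 smallest ratios, the 4 highest mean CPM, the 4 lowest smallest CPM, those nearest to each limit, and the largest rise and fall among called genes without overlap in each salt comparison. The 3 further genes with a ratio of at most 1.1 and the genes of the 2 longest runs were named after their values were seen. Counts of genes meeting the limit within fewer libraries, and joint counts without Beach control replicate 1, were added after seeing the data. No annotation of the identifiers was used here, and no sequence is shown.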

Additional observations from a re-analysis of the deposited data

Results flagged for a closer look

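The libraries of Phvul.004G032900 lay in opposite order with salt in the 2 genotypes, although of the 2 salt changes only the Inland one was called. The gene was also called in both comparisons of Beach against Inland. Its log2 differences were 0.33 (standard error 0.06) between treated plants and -0.25 (standard error 0.06) between controls. All 3 Beach treatment libraries (93.4 to 101 CPM) lay above all 3 Beach control libraries (84.9 to 89.7 CPM), while all 3 Inland treatment libraries (79.4 to 79.8 CPM) lay below all 3 Inland control libraries (97.1 to 101 CPM). The log2 fold change in Beach exceeded that in Inland by 0.57 in the fits with TMM, and by 0.47 on the group means of these CPM. The difference was not tested, since the gene was chosen from these libraries, and the NaCl dose differed along with the genotype. Groups of 3 libraries are too small for a search for single deviating values, so none was made within groups.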

How the results depend on the processing

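The number of steady genes, 640, became 209 with a ratio of at most 1.2 and 1201 with 1.4, 1212 with a minimum of 20 CPM and 236 with 100 CPM. It was 662 with TMM, 681 with DESeq2 size factors, 687 with upper quartile scaling and 641 with no upper limit, and 651 to 1115 with a library left out. Genes called with an fdr of at most 0.05 by DESeq2's Wald test numbered 52 for salt in Beach, 102 for salt in Inland, 85 between treated and 76 between control plants, against 22, 64, 42 and 37 by edgeR's quasi-likelihood test, and split in Beach into 36 higher and 16 lower. By edgeR's exact test they numbered 6, 29, 27 and 23. Over all genes the calls numbered 7639, 6577, 6997 and 5297 by DESeq2 and 7255, 5849, 6424 and 4671 by the exact test. The quasi-likelihood test called 7047, 5868, 6347 and 4374 of all genes. With a library left out in turn the counts of steady genes ran from 0 to 71, from 15 to 38, from 16 to 101 and from 15 to 53. Over these 5 counts, 48 alternative values stayed within 1.5 times and 36 did not. Replicates of the same number were not paired: the 18 pairs of such libraries in different groups had correlations of deviations from -0.16 to 0.12, of which 3 exceeded 0.1. With the replicate block 1, 15, 32 and 26 steady genes were called, against 6278, 4661, 6040 and 3920 over all genes. For the 4 genes named for their salt changes no alternative reversed the direction. The smallest change that 3 libraries in a group can detect was not computed. Among called steady genes the smallest size of a log2 fold change was 0.206 for salt in Beach and 0.154 for salt in Inland. A gene that was not called is not thereby shown to be unchanged. Equal CPM is an equal share of a library, not an equal amount of RNA in a root.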
